A study of Mus musculus with 4 samples.

Results

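In the adult testis, sperm production is sustained by undifferentiated spermatogonia, a population that includes the spermatogonial stem cells. Stem cells are maintained by GDNF, a ligand from somatic cells that signals through the receptor pair GFRA1 and RET, and progenitors lose this response and become competent to differentiate when they meet retinoic acid. STRA8, which retinoic acid induces, and the receptor KIT mark that step, and LDHC, protamines and transition proteins appear later, in spermatocytes and spermatids. The cells described here are 57 Plzf +/+ cells that gave at least 4000 unique molecular identifiers (UMIs, 1 per captured transcript) and yet no UMI of 6 genes of stem or progenitor cells. The genes are Gfra1, Lin28a, Nanos3, Nanos2, Eomes and T, called stem genes below for short. The paper did not detect EOMES in cells that express LIN28A, so a stem gene UMI does not by itself mark a stem cell. Lin28a was the only stem gene detected in 21 of the marker-positive cells defined below, and Nanos3 in 29. The same cells had fewer than 3 UMIs of Ldhc and fewer than 10 UMIs summed over the 6 spermatid genes Prm1, Prm2, Tnp1, Tnp2, Oaz3 and Smcp. They were 57 of 654 Plzf +/+ cells of that depth and 57 of 897 Plzf +/+ cells in all, and are called marker-negative cells. The remaining 597 deep cells were 463 marker-positive cells, with at least 1 UMI of a stem gene within the same Ldhc and spermatid limits, and 134 cells over one of those limits, called late cells.

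The libraries were 3′ end single-cell libraries from multi-well plates. Cells positive for tdTOMATO were sorted from testes of 4 wk old mice that carried the Eomes-iCreERt2-tdTomato knock-in allele, which both genotypes share, with DAPI to leave out dead cells and reporter-negative littermates to set the gate. Plzf +/+ cells came from plates 1, 2 and 4. Plzf lu/lu cells, homozygous for the luxoid mutation of Zbtb16 (the gene for PLZF), came from plates 3 and 4. The labels name no animals, so a replicate is a plate. Within Plzf +/+, p-values measure how the difference between classes varies from plate to plate. Between genotypes they measure the spread between the libraries of a genotype. Either spread may be technical. The reporter itself was not analysed here, and Eomes UMIs were found in 68 of the 654 deep cells, so sorting by the reporter and detection of Eomes in these libraries were not the same thing.

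The marker-negative cells were 28 of 233 deep cells on plate 1, 13 of 225 on plate 2 and 16 of 196 on plate 4. Their depth ran from 4026 to 15968 UMIs with a median of 6013, below the medians of 6906 in marker-positive cells and 9474 in late cells. At 4000 UMIs per cell, marker-negative cells showed a median of 2289 genes and marker-positive cells 2350. No 2 marker-negative cells had identical profiles, although 358 of the 376 cell barcodes of the series occurred in at least 2 libraries, as a shared set of plate barcodes gives. At the edge of the rule, the deepest cell that passed everything but the depth minimum had 3983 UMIs, and 78 marker-positive cells held a single stem gene UMI. Gfra1 was the only stem gene detected in 131 of the 463 marker-positive cells. Of the marker-negative cells, 48 had no Ldhc UMI, 35 had no spermatid UMI and 30 had neither. The highest spermatid sum was 5.

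The share of cells that passed the rule depended on depth. In Plzf +/+ cells it was 8.72% (exact Clopper-Pearson 95% interval 6.67 to 11.1%) at a minimum of 4000 UMIs, 6.59% (29 of 440 cells) at 6000 and 4.53% (12 of 265 cells) at 8000. When every deep cell was thinned to 4000 UMIs, 130 of 654 cells passed (19.9%), among them 67 cells that were marker-positive at full depth. By plate the share at 4000 UMIs was 12.0% on plate 1 (8.14 to 16.9%), 5.78% on plate 2 (3.11 to 9.68%) and 8.16% on plate 4 (4.74 to 12.9%). At a minimum of 6000 UMIs the plates gave 6.21, 5.66 and 8.09%, with no excess on plate 1. After thinning to 4000 UMIs they gave 25.3, 16.9 and 16.8%, so plate 1 was also highest at equal depth. The exact intervals cover counting error only.

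**Figure D1:**
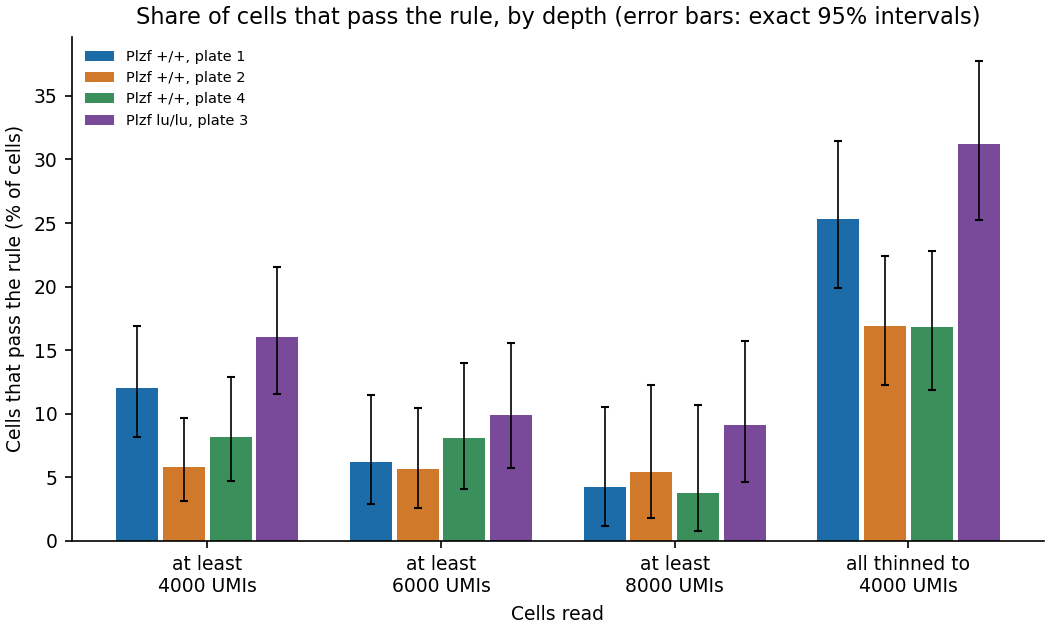
Percentage of cells that pass the rule (y axis) by depth requirement (x axis), with exact 95% intervals as error bars, for the Plzf +/+ cells of plates 1, 2 and 4 and the Plzf lu/lu cells of plate 3. Every library gave a lower share at 8000 than at 4000 UMIs, and its highest share after thinning to 4000 UMIs.

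The cells were germ cells by their transcripts. All 12 genes of a germ cell list were detected among them, each cell held at least 3 and at most 11 of these genes, and Dazl, an RNA-binding protein of germ cells, was found in 56 of 57. The list summed to 3078 to 3679 UMIs per 1000000 UMIs (CPM) by plate in marker-negative cells and 3160 to 3458 CPM in marker-positive cells. Of 18 Sertoli cell markers, which leave out the broadly expressed Ctsl of that list, 39 of the 57 cells had none and 1 cell had 4, the most of any. With Ctsl, 8 cells had none and 14 had at least 2. The Sertoli genes Sox9, Fshr, Gata4 and Rhox8 were without a UMI in the 57 cells, and by a floor of 3 counts the share of such cells with a UMI could still be 5.26%. Lists of Leydig cell and macrophage genes, each with 4 of its 8 genes in the tables, and of erythroid genes had no UMI, and those of myoid, endothelial and T or NK cells had 3, 4 and 4 UMIs.

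The rule leaves out other genes of undifferentiated spermatogonia, and UMIs of these were found in the cells. Zbtb16, the transcription factor PLZF of undifferentiated spermatogonia, was detected in 18 of 57 (31.6%), Ret in 31.6%, Id4 in 22.8%, and 56 of 57 held at least 2 genes of a list of 24 undifferentiated spermatogonial genes that leaves out those of the rule. In marker-positive cells Zbtb16 was detected in 43.4%, Ret in 52.7% and Id4 in 46.0%. For the count of 56 cells, no share in another class was taken. Uchl1 gave 162, 103 and 105 of the 339, 192 and 250 UMIs of that list on plates 1, 2 and 4. As a reference for UMIs in cells of another type, 59 Plzf +/+ cells with at least 4 Sertoli markers (median 11376 UMIs) had Zbtb16 in 33.9% and Id4 in 49.2%, but Dazl was detected in 79.7% of them, so they were no blank for germ cell genes, and the shares of Zbtb16 and Id4 are read no further. Pax7 and Pou5f1, further genes on the list, had no UMI in the 57 cells (5.26% by the same floor).

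The comparison with marker-positive cells asks what else differs between deep spermatogonia with and without a detected stem gene, once late cells are set aside. UMIs were summed per plate and class, giving 3 pairs of sums, and tested with edgeR's quasi-likelihood test with plate as a block, at a Benjamini-Hochberg adjusted p of 0.05. Over 8117 genes outside the rule, 38 were called (0.468% of those tested), of which 26 were higher (0.32%) and 12 were lower (0.148%) in marker-negative cells, and 17 of the 26 and all 12 kept their direction on each of the 3 plates. The number rested on the libraries, the model and the depth limit. Without plate 1 it was 5 higher and 4 lower, without plate 2 it was 18 and 2, without plate 4 it was 27 and 15, and DESeq2 gave 1 higher (Stra8) and 0 lower, with 165 genes at an unadjusted p under 0.05. Without the plate block it was 1 and 4, and at a minimum of 6000 UMIs it was 2 and 2. CPM values of the tests are on TMM-scaled library sizes, and folds are given as log2 differences with their standard error.

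Genes of the GDNF and FGF response, the signals that keep stem cells undifferentiated, were lower or did not pass the test. Egr2, an immediate early transcription factor, stood at 100, 128 and 107 CPM on plates 1, 2 and 4 in marker-negative cells and at 262, 302 and 253 CPM in marker-positive cells. These ranges did not overlap, and Egr2 fell by 1.30 ± 0.23 on the log2 scale (adjusted p = 8.76e-05, edgeR), a call kept without any one plate and lost with DESeq2 (adjusted p = 0.257). Lhx1, a homeobox gene induced by GDNF, was at 25.1, 10.7 and 58.2 CPM against 119, 125 and 126 CPM, again without overlap. Its log2 difference was -1.99 ± 0.38 (adjusted p = 0.000409), and -1.84 without plate 1 (adjusted p = 0.0748) and -1.67 without plate 2 (adjusted p = 0.0662). The other 12 tested genes of the 14 did not pass, including the targets Etv5 (log2 difference -0.85, adjusted p = 0.266) and the receptor gene Ret (-0.62, adjusted p = 0.512). The differences of 13 of the 14 were below 0, with a median of -0.58 beside 0.00 over all genes tested.

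The transcription factors and other genes that define undifferentiated spermatogonia were for the most part not separated. Of 15 tested genes on that list, 1 was higher, 1 (Lhx1) was lower and 13 did not pass, with a median log2 difference of -0.44. Zbtb16 was at 69.0, 64.0 and 58.2 CPM in marker-negative cells and at 91.0, 61.6 and 107 CPM in marker-positive cells, and the groups overlapped (log2 difference -0.44 ± 0.33, adjusted p = 0.793). Id4, an inhibitor of differentiation expressed in stem cells, was at 56.4, 21.3 and 77.6 CPM against 96.2, 145 and 102 CPM. The Id4 ranges did not overlap, but the difference of -1.06 ± 0.33 did not pass (adjusted p = 0.152). Bmi1, a Polycomb gene, differed by -0.12 ± 0.27 (adjusted p = 0.966). Pdx1, Neurog3 and Pax7 were too low to be tested. The gene that was higher was Uchl1, a ubiquitin hydrolase abundant in spermatogonia, at 1016, 1098 and 1018 CPM against 688, 656 and 757 CPM (0.58 ± 0.11, adjusted p = 0.000233). Uchl1 lost the call without plate 1 (0.57, adjusted p = 0.052) and without plate 2 (0.50, adjusted p = 0.121).

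Of the genes tied to retinoic acid, Crabp1 was higher. Crabp1, which binds retinoic acid in the cytoplasm, was at 157, 427 and 204 CPM in marker-negative cells and at 131, 132 and 113 CPM in marker-positive cells, higher on every plate (0.97 ± 0.22, adjusted p = 0.00767). It rested on plate 2, without which the difference was 0.52 (adjusted p = 0.791). Stra8 was at 370, 672 and 155 CPM against 159, 92.8 and 86.1 CPM, from 59, 63 and 16 UMIs in marker-negative cells. The plate values lay from 155 to 672 CPM within the marker-negative group, and the log2 difference of 1.74 ± 0.39 did not pass (adjusted p = 0.21). It did pass in 10 of 12 alternative settings, among them each setting that left out a plate (1.10 to 2.12) and DESeq2 (1.70, adjusted p = 0.00164). Of the 6 genes tested on the list for progenitors and retinoid response, Crabp1 alone passed, and of 11 on the list for differentiating spermatogonia, Crabp1 alone, which both lists hold. Sohlh1, a transcription factor of spermatogonial differentiation, gave 0.53 (adjusted p = 0.377), and Kit, the receptor of differentiating spermatogonia, gave -0.46 from 6 UMIs in 57 cells. Rarg and Crabp2 had no UMI in the 57 cells.

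**Figure D2:**
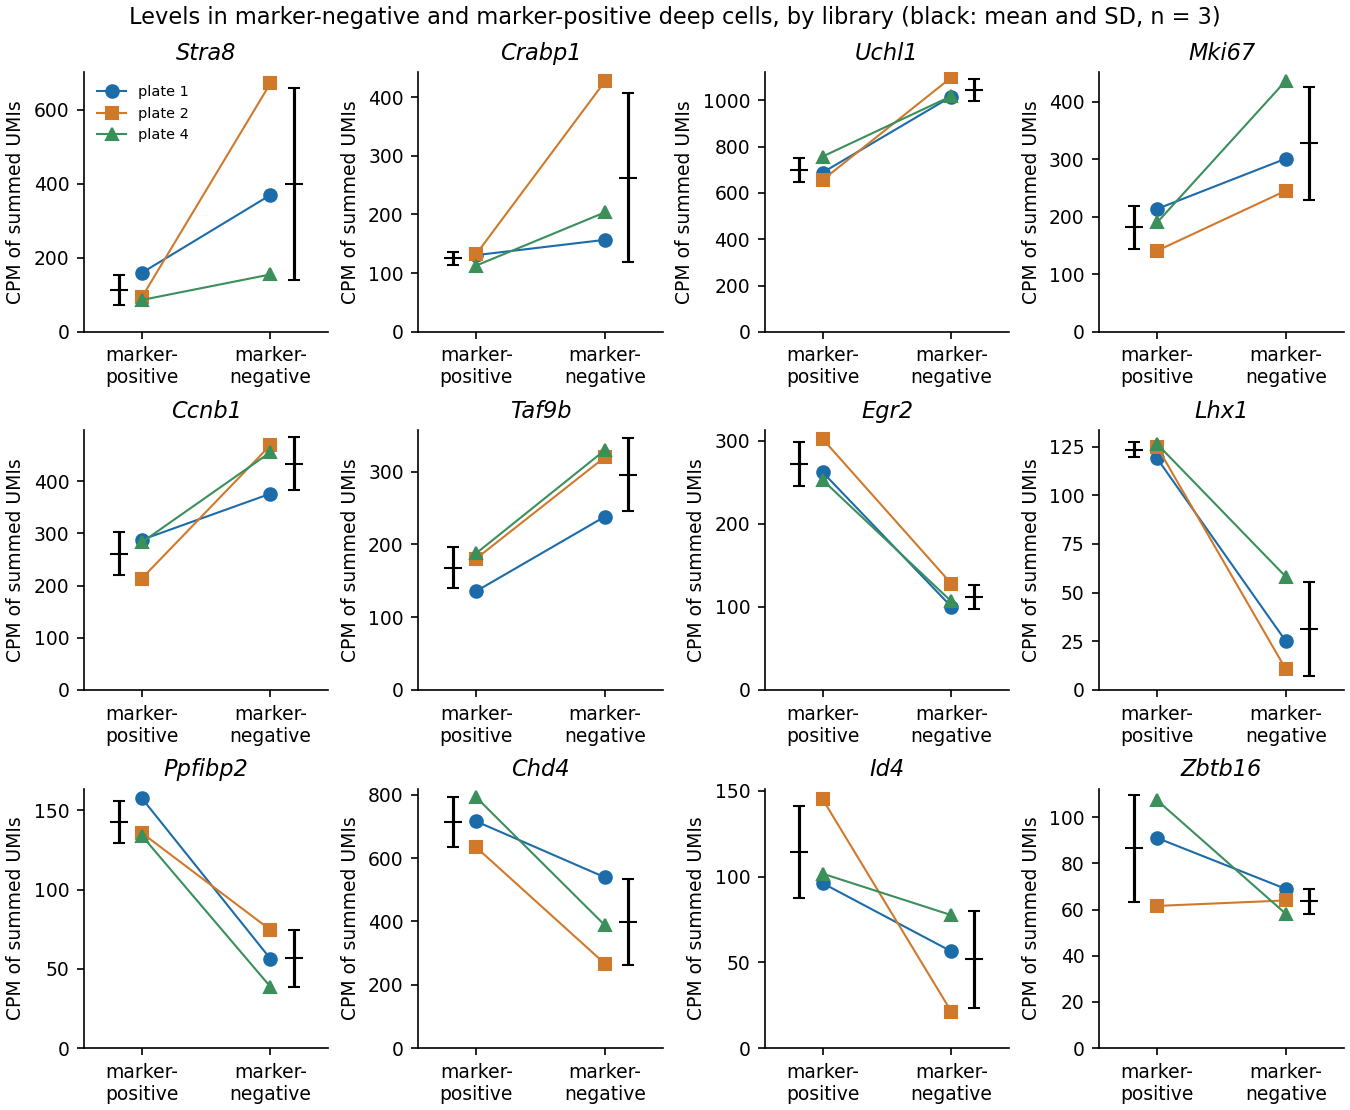
Levels of 12 genes in CPM of summed UMIs (y axis) in marker-positive and marker-negative deep Plzf +/+ cells (x axis), 1 line per plate, with the mean and SD of the 3 plates in black. Egr2, Lhx1, Ppfibp2, Chd4 and Id4 are lower on every plate, Uchl1, Crabp1, Mki67, Ccnb1, Taf9b and Stra8 are higher on every plate, and Zbtb16 crosses.

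Among cell cycle genes, 2 of G2 and M phase were higher. Of 30 tested G2 and M phase genes, Mki67 and Ccnb1 were higher, none was lower, and the median log2 difference was 0.32, with 23 of 30 above 0. Mki67, the proliferation antigen Ki-67, was at 301, 245 and 436 CPM against 214, 141 and 190 CPM (0.81 ± 0.18, adjusted p = 0.00779). Ccnb1, the cyclin that drives entry into mitosis, was at 376, 469 and 456 CPM against 288, 214 and 283 CPM (0.70 ± 0.16, adjusted p = 0.00797). In neither gene did the plates of the groups overlap. Mki67 lost its call without plate 2 (0.81, adjusted p = 0.113) or plate 4 (0.59, adjusted p = 0.368), and Ccnb1 without plate 2 (0.52, adjusted p = 0.51), and Ccnb1 turned to -0.075 when only the 30 cells with no Ldhc or spermatid UMI were kept. None of 28 tested S phase genes passed, with a median of 0.05 and 21 of 28 above 0.

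Replication-dependent histone genes stood out among the higher genes, and this group was put together after their values were seen, so it has no test of its own. They encode the core and linker histones made in S phase, lie in clusters of near-identical copies, and most of their transcripts end in a stem-loop in place of a poly(A) tail, so reads of one copy may be counted to another. Of 24 such genes tested, 9 were higher, none was lower and all 24 differences were above 0, with a median of 1.18. Hist1h3b, which encodes a histone H3, was at 332, 64.0 and 155 CPM in marker-negative cells and at 77.8, 62.4 and 63.7 CPM in marker-positive cells (1.48 ± 0.25, adjusted p = 5.96e-05). Hist1h2ae, which encodes a histone H2A, was at 470, 85.3 and 204 CPM against 152, 95.4 and 97.3 CPM (1.16 ± 0.22, adjusted p = 0.000297). Both genes were higher on plates 1 and 4 and neither stood apart on plate 2, and of the 9 called histone genes, the 7 that could be fitted without plate 1 did not pass there (Hist1h3b 0.78, adjusted p = 0.69, and Hist1h2ae 0.57, adjusted p = 0.747). The largest log2 differences in the group were those of Hist1h2an (1.93 ± 0.38) and Hist1h3c (1.92 ± 0.34), at 10.7 and 0 CPM on plate 2 against 15.2 and 16.03 CPM. On plate 2, 8 of the 9 called histone genes were lower in marker-negative cells. Of the 2043 histone UMIs of the group, 5 of the 57 cells held 61.4%. AY036118, a called gene chosen after its value was seen, had the same order of plates, at 401, 32.0 and 223 CPM against 164, 51.5 and 70.4 CPM (1.18 ± 0.23, adjusted p = 0.000729). It is a non-coding transcript that also led a cluster with Rpph1 and Rn7sk, small RNAs with no poly(A) tail, and its part in the histone values was not tested. AY036118 lost its call without plate 1 (1.00, adjusted p = 0.486) and without plate 4 (0.99, adjusted p = 0.051). Its direction turned (-0.50) when only the 30 cells with no Ldhc or spermatid UMI were kept.

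The promoters of 4 called histone genes are shown, with the 250 bases before the start site (RefSeq, GRCm38.p6) written in the direction of the gene. Capitals mark CCAAT or its reverse complement ATTGG, and TATAAA or its reverse complement TTTATA. The Hist1h2an window is chr13:21787249-21787498 on the minus strand, the Hist1h3c window chr13:23745522-23745771 on the minus strand, the Hist1h2bg window chr13:23571150-23571399 on the plus strand and the Hist1h3b window chr13:23752095-23752344 on the plus strand.
Hist1h2an: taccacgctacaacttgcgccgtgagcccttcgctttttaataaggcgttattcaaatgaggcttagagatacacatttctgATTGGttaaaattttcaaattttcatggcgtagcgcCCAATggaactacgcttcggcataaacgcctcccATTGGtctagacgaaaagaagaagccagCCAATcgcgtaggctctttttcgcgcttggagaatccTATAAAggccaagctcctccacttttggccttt
Hist1h3c: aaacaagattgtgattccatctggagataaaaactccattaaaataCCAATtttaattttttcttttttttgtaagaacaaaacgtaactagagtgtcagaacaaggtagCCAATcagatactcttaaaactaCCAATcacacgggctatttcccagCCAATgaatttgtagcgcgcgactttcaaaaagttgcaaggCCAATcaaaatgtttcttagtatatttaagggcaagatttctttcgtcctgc
Hist1h2bg: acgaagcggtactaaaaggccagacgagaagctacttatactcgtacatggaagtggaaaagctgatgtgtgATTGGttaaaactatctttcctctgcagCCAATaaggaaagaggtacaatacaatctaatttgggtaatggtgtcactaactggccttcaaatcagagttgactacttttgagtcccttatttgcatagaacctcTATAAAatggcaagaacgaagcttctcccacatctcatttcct
Hist1h3b: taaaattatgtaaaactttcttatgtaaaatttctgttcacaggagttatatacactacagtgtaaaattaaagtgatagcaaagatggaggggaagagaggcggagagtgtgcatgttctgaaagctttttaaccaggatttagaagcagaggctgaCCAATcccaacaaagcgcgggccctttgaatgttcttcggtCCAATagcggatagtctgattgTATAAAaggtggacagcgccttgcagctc
Of the 24 tested histone genes, 23 matched a RefSeq window. CCAAT on either strand was present in 23 of 23, at least 2 copies were present in 18 of 23, and TATAAA on either strand was present in 13 of 23 (56.5%). Over 32851 promoter windows of the same length the shares were 33.8, 10.1 and 12.4%. All 9 called genes had at least 2 copies of CCAAT and 5 had TATAAA, and of the other 14 genes 9 and 8 did. Hist1h3c has no TATAAA in its window. A match is a description of these letters and was not tested as a binding site.

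Other genes called in this comparison were of varied function. The 5 with the largest rise among those that reached 30 CPM and rose on each plate included Taf9b, a TFIID subunit gene, at 238, 320 and 330 CPM against 136, 181 and 188 CPM (0.81 ± 0.19, adjusted p = 0.0112), and, with Hist1h3b, Crabp1 and Mki67 described above, Sec61b, part of the translocon of the endoplasmic reticulum (0.70 ± 0.19, adjusted p = 0.0464). Of 80 tested genes of oxidative phosphorylation, again a group chosen after values were seen, Atp5f1, Ndufb8, Ndufa2, Ndufa11 and Cox7a2 were higher by 0.48 to 0.59, none of them passed without plate 1 or without plate 2, and the median of the group was 0.13. On the lower side, Chd4, the ATPase of the NuRD chromatin remodeller, was at 539, 267 and 388 CPM against 716, 634 and 792 CPM (-0.80 ± 0.13, adjusted p = 5e-05), without overlap. Chd4 kept the call in 10 of 12 settings and lost it narrowly without plate 2 (-0.66, adjusted p = 0.0527). Ppfibp2, a liprin, was at 56.4, 74.6 and 38.8 CPM against 158, 136 and 134 CPM (-1.36 ± 0.31, adjusted p = 0.00839). Dync2li1, a subunit gene of the dynein that moves cargo in cilia, had no UMI in the 57 cells on any plate and 26.4 to 36.3 CPM in marker-positive cells, which is at least 3.84-fold lower against a floor of 3 counts over the group (adjusted p = 0.0218). Nek6, a mitotic kinase (-2.42 ± 0.58, adjusted p = 0.0181), and Slc9a3r1, a scaffold protein (-1.89 ± 0.48, adjusted p = 0.0298), were also lower. Fst, which encodes the activin inhibitor follistatin and was chosen after its value was seen, was lower (-1.13 ± 0.27, adjusted p = 0.017), and of the settings that left out a plate it passed in the one without plate 4 (-1.79). Sec61b (0.63 to 0.75), Taf9b (0.80 to 0.81), Slc9a3r1 (-2.12 to -1.68), Nek6 (-2.84 to -1.92) and Dync2li1 passed in no setting that left out a plate, and Ppfibp2 passed only in the one without plate 2 (-1.59, adjusted p = 0.0325).

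The remaining lists gave no call in this comparison. None of 11 germ cell genes passed (median -0.06, Dazl 0.15 ± 0.10), nor did any of 13 genes of DNA methylation and Polycomb (0.08), 10 of spermatocytes (0.06), 5 of spermatids outside the rule (-0.11) or 2 of Sertoli cells (-0.23). A difference that missed the threshold is not shown to be absent. On simulated counts for this comparison, with 7890 genes, 48.5% of genes changed by 1 on the log2 scale were recovered, 79.1% of those changed by 2 and 95.5% of those changed by 3. Of 160 calls there, 11 were false. The changes were placed only in genes above 30 CPM, with the same spread for all genes and no differences between plates. These shares therefore do not carry over to all genes tested.

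Marker-negative cells were next set on a scale with the marker-positive cells, by the number of stem gene UMIs in a cell. This is a description with no test, since the scale is that of the rule, and its CPM values are on total UMIs, which sets them slightly apart from the TMM-scaled values above. Pooled over the 3 plates, there were 57 cells with 0, 78 with 1, 167 with 2 to 3 and 218 with 4 or more stem UMIs, with median depths of 6013, 6067, 6423 and 7761.5 UMIs. In that order, Stra8 was at 361, 172, 142 and 76.3 CPM, Uchl1 at 968, 715, 720 and 621 CPM, and Crabp1 at 225, 136, 135 and 109 CPM. The GDNF and FGF response list ran the other way, at 845, 1200, 1381 and 1680 CPM. Zbtb16 had no such order, at 60.2, 90.1, 82.2 and 79.6 CPM, and Dazl was level at 1112, 1027, 1135 and 1005 CPM. The histone genes were at 5343 CPM in the cells with 0 and at 2382, 2366 and 2346 CPM in the others, and on plate 2 at 1143 CPM in the cells with 0, below 2045, 1828 and 1768 CPM. The plates did not share the order of Stra8, which on plate 1 was at 339 and 335 CPM in the cells with 0 and 1, and on plate 2 at 660 and 43.5 CPM, nor that of Crabp1, which on plate 1 was at 144 and 156 CPM.

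**Figure D3:**
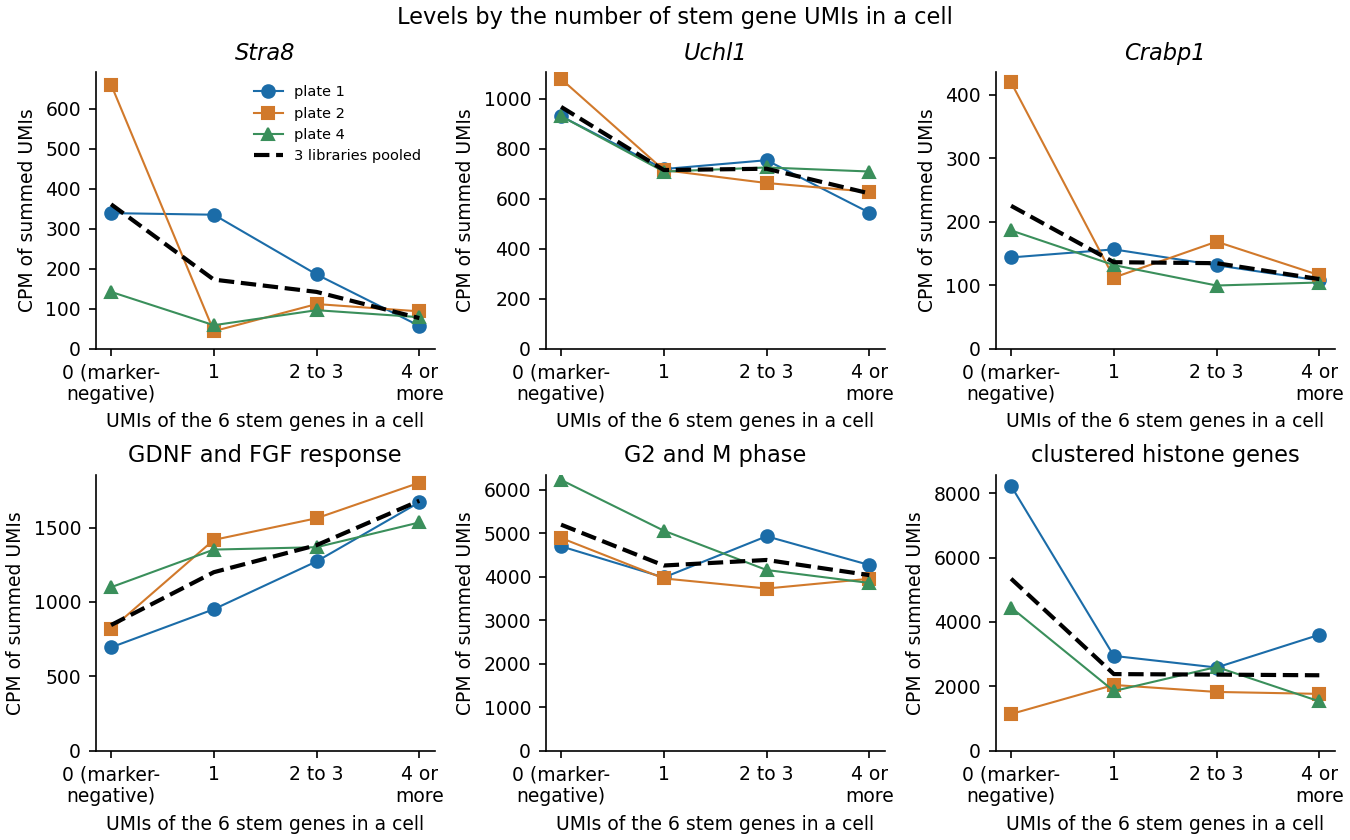
Levels in CPM of summed UMIs (y axis) of 3 genes and 3 gene lists in deep Plzf +/+ cells within the Ldhc and spermatid limits, grouped by stem gene UMIs per cell (x axis), with 1 line per plate and the pooled value dashed. Stra8, Uchl1 and Crabp1 are highest at 0 stem UMIs in the pooled line, the GDNF and FGF response list is lowest there, and the histone line of plate 2 lies below the other plates at 0.

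Taken one by one, the 57 cells were not alike. Stra8 reached at least 5 UMIs in 14 cells, 6 on plate 1, 6 on plate 2 and 2 on plate 4, and 38 cells had none. Of the 463 marker-positive cells, 27 reached 5 Stra8 UMIs and 369 had none. This cut is in raw UMIs, which deeper cells pass more easily. Histone UMIs exceeded the 90th percentile of marker-positive cells (51.2 per 10000 UMIs of the cell) in 15 cells, 9 on plate 1, 0 on plate 2 and 6 on plate 4. G2 and M phase UMIs exceeded theirs (74.8 per 10000) in 14 cells, spread as 5, 4 and 5. Only 3 cells were high in both histones and G2 and M phase genes, 5 had both Stra8 and high G2 and M phase genes, and 4 had both Stra8 and high histones. The other 25 cells had none of these features. S phase genes exceeded the 90th percentile in 2 cells. GDNF and FGF response genes, by contrast, were above the 90th percentile in 0 of 57 cells and below the 10th percentile in 18.

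The cells with at least 5 Stra8 UMIs had a median of 3.13 GDNF and FGF response UMIs per 10000 UMIs and 3 Zbtb16 UMIs in all (25.4 CPM), and held 19 of the 26 Dnmt3b UMIs of the group, from the gene of a DNA methyltransferase. The 25 cells with none of the 3 features had a median of 8.78 and 15 of the 23 Zbtb16 UMIs (105 CPM). Over all 57 the median of the GDNF and FGF response was 8.45, beside 14.8 in marker-positive cells. The cells with high Stra8 were deeper (median 7356 UMIs) than those with none of the features (5116 UMIs), and the part of depth in these counts was not tested.

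**Figure D4:**
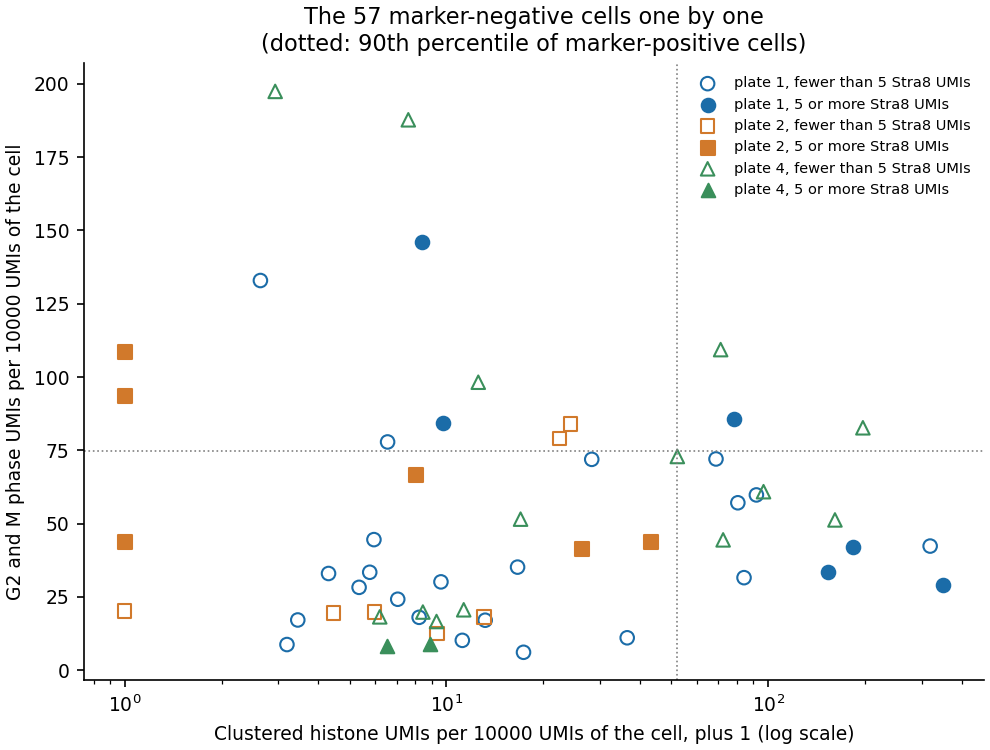
Each of the 57 marker-negative cells by its histone UMIs plus 1 (x axis, log scale) and its G2 and M phase UMIs (y axis), both per 10000 UMIs of the cell, with filled symbols for cells with at least 5 Stra8 UMIs and symbols by plate. Of the 57 cells, 15 lie right of the dotted histone line and 14 above the dotted G2 and M phase line, and 3 lie beyond both.

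When the 654 deep cells were clustered without the 13 genes of the rule, at 4000 UMIs per cell, the marker-negative cells did not form a cluster. They were spread over 5 of 6 clusters. A cluster led by Ccna2, Ccnb1, Mki67 and Stra8 held 16 of them (17.4% of its 92 cells), one led by histone genes held 14 (22.2% of 63), and one led by AY036118 and other non-coding or ribosomal transcripts held 14 (8.70% of 161). A cluster with Ppfibp2, Nid1, Lhx1 and Egr2 among its leading genes held 9 (5.20% of 173), and one led by Hnrnpa3 held 4 (7.14% of 56). The cluster led by Crisp2 and Fabp9, in which 106 of 109 cells were late, held 0. Of the nearest neighbours of a marker-negative cell (set at 15 with the cell itself counted), 14.04% on average were marker-negative, which made up 8.58% of other cells, and 0.877% were late cells, which made up 20.5%. Without thinning, the cluster that held most of them had 42.1% in place of 28.1%.

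**Figure D5:**
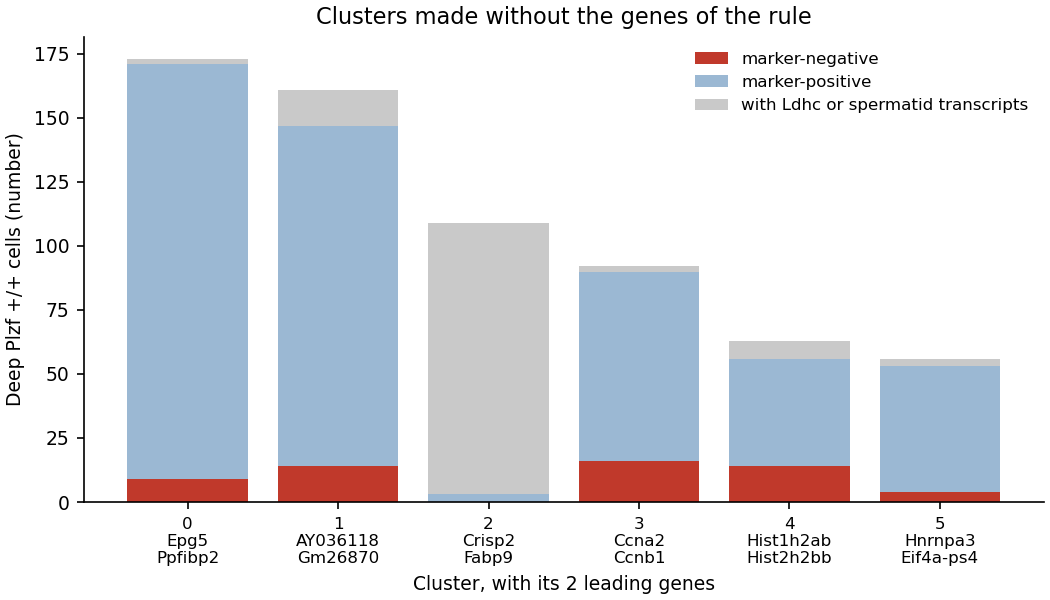
Number of deep Plzf +/+ cells (y axis) in each of 6 clusters made without the genes of the rule (x axis, with 2 leading genes each), stacked as marker-negative, marker-positive and late cells. Marker-negative cells are a minority of every cluster, from 0 of 109 to 14 of 63.

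The marker-negative cells were also set against all 597 other deep cells, 134 late cells included. Over 10031 genes outside the rule, 722 were called (7.2%), of which 77 were higher (0.768%) and 645 were lower (6.43%), and 180 of the lower genes had no UMI in the 57 cells. Nearly all calls went without the plate block (0 higher and 1 lower, with 1350 genes at an unadjusted p under 0.05), DESeq2 gave 4 and 299, and cells of 4000 to 8000 UMIs alone gave 42 and 28. All 19 tested spermatid genes and 7 of 16 spermatocyte genes were lower, a contrast that the limits themselves used. Hrasls5, Fbp1, which encodes a gluconeogenic enzyme, Spata4 and Hmgb4, which encodes a chromatin protein of spermatids, had no UMI in marker-negative cells and were at least 37.0-, 28.4-, 26.8- and 24.7-fold lower against a floor of 3 counts. Pgk2, the glycolytic kinase of late germ cells, gave -4.59 on the log2 scale. On the higher side, Stra8 passed here (1.79 ± 0.28, adjusted p = 0.000112) and in 11 of 12 settings, at 380 ± 245 CPM (SD, n = 3 plates) against 104 ± 34.6 CPM. Panx1, a channel protein gene (1.65), Hist1h3b (1.54), Hist1h2bj (1.13), Bex1 (1.07), Crabp1 (1.07), Taf9b (0.99), the pseudouridine synthase gene Pus7 (0.94), Ankle2 (0.94) and Cuta (0.93) followed. Of these 10 genes, Stra8 and Taf9b kept the call whichever plate was left out. Hist1h3b (0.97) and Hist1h2bj (0.63) lost it without plate 1 and Crabp1 (0.55) without plate 2. Panx1 (1.12 and 1.61), Bex1 (0.94 and 0.85) and Pus7 (1.01 and 0.35) lost it without plate 2 or plate 4, Cuta without plate 1 (0.84) or plate 4 (0.74), and Ankle2 without any one plate (0.83 to 1.04). Sohlh1 was higher here, as were Mki67, Ccna2, Ccnb1 and Cenpf among 30 G2 and M phase genes, and Pou3f1, a POU factor induced by GDNF, was lower together with Lhx1 and Egr2. Sohlh1 (0.64 to 0.76), Cenpf (0.32 to 0.48) and Pou3f1 lost the call whichever plate was left out, and Ccna2 without plate 2 (0.71) or plate 4 (0.65). Lhx1 lost it without plate 1 (-1.56, adjusted p = 0.0856), Mki67 without plate 4 (0.64, adjusted p = 0.163), and Ccnb1 without plate 2 (0.59) or plate 4 (0.59). Ccnb1 (-0.18) and Cenpf (-0.018) turned direction when only the 30 cells with no Ldhc or spermatid UMI were kept.

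Cells under the same rule were also counted in Plzf lu/lu testes. The share that passes depends on the levels of the 6 stem genes themselves, so it is a description of detection and not of how many cells of a kind there are. They were 36 of 224 deep cells on plate 3 (16.1%, exact 95% interval 11.5 to 21.5%) and 3 of 23 on plate 4 (13.0%, 2.78 to 33.6%). At a minimum of 6000 UMIs the lu/lu share was 9.88% on plate 3 and 5.56% (1 of 18 cells) on plate 4, the latter below each Plzf +/+ plate, and at 8000 UMIs it was 8.96% over both plates beside 4.53% in Plzf +/+. No test of the shares was made. Plate and genotype can be told apart only on plate 4, where the 3 lu/lu cells leave a wide interval. The level of Zbtb16, which carries the luxoid mutation, rested in Plzf +/+ cells on 11, 6 and 6 UMIs on plates 1, 2 and 4 (63.2, 62.9 and 53.2 CPM on total UMIs), and in the lu/lu cells on 1 UMI on plate 3 (4.14 CPM, exact Poisson 95% interval 0.105 to 23.1) and 0 in the 3 cells of plate 4, with an upper limit of 183 CPM by the same interval.

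The genotype comparison was one of cell makeup as well as of genotype. Of the 39 lu/lu cells, 6 had at least 4 Sertoli markers, and 4 of them with at least 10 markers held 489 of the 526 Sertoli UMIs. Of the 57 Plzf +/+ cells, 1 had 4 markers and all held 38 Sertoli UMIs. With all cells, 43 of 3093 genes were called (1.39%), of which 34 were higher in lu/lu cells (1.1%) and 9 were lower (0.291%, edgeR). Of 7 tested Sertoli genes, 6 were among the higher, led by the cystatin gene Cst9 (5.28 ± 0.57, adjusted p = 3.49e-10), at 453 and 451 CPM on plates 3 and 4 against 15.6, 13.2 and 0 CPM on plates 1, 2 and 4. Wfdc10, Gstm7 and Aldh1a1, which makes retinoic acid, had no UMI in the Plzf +/+ cells and were at least 22.2-, 15.8- and 16.3-fold higher against a floor of 3 counts over the group, and Gstm2, a glutathione transferase gene, was higher by 6.34 ± 0.95. Cst9 and Wfdc10 kept the call in each setting that left out a library and could be fitted, and Gstm7 (adjusted p = 0.237), Aldh1a1 (adjusted p = 0.241) and Gstm2 (adjusted p = 0.127) lost it without plate 1, and Gstm2 also without the Plzf +/+ cells of plate 4 (5.89).

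Without the cells that had at least 4 Sertoli markers, a setting added after the data were seen, 8 genes were higher and 5 lower, and 10 of these were called with all cells too. It removed 5 of the 36 lu/lu cells of plate 3, 1 of the 3 of plate 4 and 1 Plzf +/+ cell. Adjusted p ran from 4.48e-30 (Rps15a-ps8) to 0.0472 (Mif, edgeR). No library was left out in this setting, so how far these calls rest on 1 library was not tested. The higher genes were the pseudogenes Rps15a-ps8 (3.52) and Rps25-ps1 (1.42), Gm21738, Gm26870 and Gm10717 (1.85 to 2.26), Gsta4, which detoxifies lipid peroxides (1.72), Ywhaq, a 14-3-3 protein gene (0.97), and the cytokine gene Mif (0.89). The lower genes were the nuclear RNA Malat1 (-1.89), the histone demethylase homologue Jmjd1c (-1.57), Tecr (-1.50), the kinetochore motor Cenpe (-1.44) and Gm16580 (-1.41). With all cells, Jmjd1c was at 113 and 64.5 CPM on plates 3 and 4 in lu/lu and at 303, 317 and 426 CPM in Plzf +/+ cells, the plate 4 value being 1 UMI in 3 cells (-1.67 ± 0.42, adjusted p = 0.0153), and it lost the call without plate 1 (-1.79, adjusted p = 0.254), without the Plzf +/+ cells of plate 4 (-1.51) or without plate 3 (-2.56). Cenpe was at 175 and 580 CPM against 560, 607 and 863 CPM, so the groups overlapped (-1.51 ± 0.36, adjusted p = 0.0108), and it lost the call without plate 3 (-0.38, adjusted p = 0.79), without plate 1 (-1.58) or without the Plzf +/+ cells of plate 4 (-1.26). Frmd6 (-2.03) and the cholesterol transporter Abca1 (-1.87) were lower with all cells, and without the Sertoli marker cells they were not called at nearly the same differences (Frmd6 -1.87, adjusted p = 0.104, and Abca1 -1.82, adjusted p = 0.0523). With all cells, Abca1 lost the call whichever Plzf +/+ plate was left out (adjusted p = 0.0609 to 0.33, edgeR). Frmd6 lost it without the Plzf +/+ cells of plate 4 (adjusted p = 0.24) and had no UMI in the 3 lu/lu cells of plate 4. Neither gene passed with DESeq2. Cenpe and Cenpf were the 2 lower genes among 24 tested G2 and M phase genes, whose median was -0.40 beside -0.04 over all genes, and Stra8 gave 0.50 (adjusted p = 0.864). Without plate 1 the comparison with all cells had 9 higher and 0 lower genes, and without the 3 lu/lu cells of plate 4 it had 68 and 27. In settings that left out a lu/lu library, the one that remained was assumed to vary like the Plzf +/+ plates.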

How the data were processed

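The authors deposited 1 table per genotype of raw UMI counts per gene symbol and cell, without normalization. Per the submitters' processing notes, bcl2fastq 2.18.0.12, Picard 2.9.3, STAR 2.5.4a and GRCm38 were used. The plate and well in a cell's name gave its library. On plate 4, 5 Plzf +/+ cells sit in wells whose label gives the other genotype; the genotype of the table was kept, and none of the 57 cells is among them. No columns were left without a library. No doublet caller was run, and the alternative without cells over 20000 UMIs stands in for it.

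Marker-negative cells were picked by the thresholds given above. The members and the gene lists were chosen with earlier results of these data known. UMIs were summed per library and class and tested with edgeR 4.0.16 (R 4.3.3; filterByExpr, TMM, glmQLFit with robust fitting, glmQLFTest, Benjamini-Hochberg at 0.05). The 13 genes of the rule were left out of all counts; they take no test. Plate was a block in the comparisons within Plzf +/+, because both sums of a pair come from the same plate; the deviations of such pairs from their group means correlated at 0.101, 0.117 and 0.101 (marker-positive comparison) and 0.0765, 0.0963 and 0.0721 (all other cells). Alternatives were DESeq2 1.42.0, no filter, no block, each plate left out, thinning to 4000 UMIs, other depth limits, the 30 cells without Ldhc or spermatid UMIs and, chosen after seeing the data, the removal of cells with at least 4 of 18 Sertoli markers. Genes were named by rule: the 10 (5 in the second comparison) largest called changes each way that reached a mean of 30 CPM and went the same way in the 3 libraries, 5 each way between genotypes, the identity genes, and up to 4 called genes (otherwise the 2 most abundant) of each list. Other named genes were chosen after their values were seen, among them Stra8, Etv5, Ret, Sohlh1, Kit, Dnmt3b, Hist1h2ae, Hist1h2an, Hist1h3c and the genes called without Sertoli marker cells. Clusters were made with scanpy 1.11.5 (Leiden, resolution 0.5). Fits were tested on simulated counts, with changes placed only in genes above 30 CPM, the same spread for all genes and no plate differences. Of genes changed by 2 on the log2 scale, 88.1% (all other cells, 9750 genes), 79.1% (marker-positive cells, 7890 genes) and 85.7% (genotypes, 2719 genes) were recovered. Depth sets the precision: the 57 cells hold 382350 UMIs, the marker-positive cells 3572025 and the late cells 1904569.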

Additional observations from a re-analysis of the deposited data

How the results depend on the processing

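The counts of called genes moved with most settings, and are given as higher and lower in marker-negative cells. Against all other deep cells they were 77 and 645; DESeq2 gave 4 and 299, no replicate block gave 0 and 1 (with 1350 genes at an unadjusted p under 0.05), thinning to 4000 UMIs 35 and 108, cells of 4000 to 8000 UMIs only 42 and 28, and cells without Ldhc or spermatid UMIs 16 and 370. Without a low count filter 36 were higher, at a minimum of 6000 UMIs 46 were higher, without cells over 20000 UMIs 260 were lower and without Sertoli marker cells 245 were lower. Leaving out 1 plate gave 42 to 55 higher and 420 to 735 lower. Against marker-positive cells they were 26 and 12; DESeq2 gave 1 and 0 (165 genes at an unadjusted p under 0.05), no filter 11 and 22, no replicate block 1 and 4, and a minimum of 6000 UMIs 2 and 2. Thinning left 7 lower, cells without Ldhc or spermatid UMIs 10 higher, and removal of Sertoli marker cells 6 lower. Leaving out 1 plate gave 5 to 27 higher and 2 to 15 lower. Between genotypes, 34 were higher and 9 lower in lu/lu cells; DESeq2 gave 18 and 0 (74 genes at an unadjusted p under 0.05), no filter 56 and 0 (883 genes), no Sertoli marker cells 8 and 5, and leaving out 1 library 9 to 68 and 0 to 27. The causes were not tested.

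Single genes were read under the alternatives only where named, 48 against all other cells and 65 against marker-positive cells. Among those of them called in the main test, direction turned in 4 values, each with the 30 cells that lack Ldhc and spermatid UMIs: Ccnb1 (-0.18) and Cenpf (-0.018) against all other cells, and Ccnb1 (-0.075) and AY036118 (-0.50) against marker-positive cells. The share that passes the rule moved from 8.72% to 4.53% at 8000 UMIs and 19.9% after thinning, and leaving out 1 plate gave 6.89 to 10.3%. The largest cluster share moved from 28.1% to 42.1% without thinning. For the 65 named genes against marker-positive cells, 438 of the values under alternatives kept their direction and side of the threshold, 270 lost the call, 10 gained it, 2 called values turned, and 35 that passed in neither setting changed sign. The 57 cells hold 382350 UMIs, so a gene at 30 CPM rests on few UMIs per plate.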
